A study of Mus musculus with 14 samples.

Results

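The Hox genes encode homeobox transcription factors that lie in 4 clusters, Hoxa, Hoxb, Hoxc and Hoxd, and are numbered by paralog group from the 3′ end of each cluster to the 5′ end. They were selected here by name, as every protein-coding gene of the deposited table called Hoxa, Hoxb, Hoxc or Hoxd with a number, which gives 39 genes of the 56748 in the table. The family itself was chosen by a measured result: earlier results on these libraries had shown Hox genes among the largest falls after injury. Levels and changes on injury are therefore given as a description. Where members called on injury are counted, the same values led to the choice of the family and the count supports nothing. The comparisons between genotypes are tested.

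In vertebrate embryos Hox genes are switched on in the order in which they lie along their cluster, so that genes of low paralog number are expressed from the hindbrain backwards and genes of high number only towards the tail. In the spinal cord, Hox proteins of the middle groups mark brachial and thoracic levels and those of groups 10 and 11 lumbar levels, where they set the identity of motor neuron columns and pools. Much of this pattern is kept in the adult cord, where Polycomb complexes hold silent genes shut and Trithorax complexes keep active ones open.

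RNA from bulk mouse spinal cord was sequenced in 14 libraries of 4 groups. Control cords came from naïve mice (n = 3) or from mice 7 days after spinal cord injury (SCI, n = 4). AstroCSF1KO cords, labelled as carrying a deletion of CSF1 in astrocytes, were uninjured (n = 3) or taken 7 days after SCI (n = 4). Injured tissue contained the lesion, and uninjured tissue came from the matching level per the labels. Whether the levels did match was not tested. The Cre driver, strain, age, sex, injury model and spinal level are not given in the labels used here, nor is it said that the libraries come from separate animals, so p-values measure the spread between these samples. All values are FPKM, fragments scaled for gene length and library depth, and so can be compared between genes.

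Recovered reads came to 13263610 to 21969581 per library. Uninjured control replicate 1 and injured control replicates 1 and 4 stand apart from the other 11 libraries, with 1.45% to 2.06% of detected genes at a single read against 8.44% to 11.6% in the others. Csf1 itself ranged from 4.24 to 12.2 FPKM in uninjured controls and from 8.23 to 11.02 in uninjured knockouts. That overlap rests on uninjured control replicate 1, as replicates 2 and 3 were at 11.9 and 12.2, above every uninjured knockout. In injured cords Csf1 was not lower, at 7.95 to 18.3 in controls and 16.4 to 19.9 in knockouts. Injured control replicates 2 and 3, which do not stand apart, were at 17.6 and 18.3. The deletion in astrocytes was not tested in this bulk tissue. The knockout groups are therefore called labelled knockout below. As a description of the tissue, 6 oligodendrocyte genes summed to 3632 to 4968 FPKM and 6 neuron genes to 851 to 2055 FPKM over the 14 libraries. No other tissue was compared, so these sums do not test the spinal cord label.

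The upstream sequences of members at both ends of the pattern are shown first, with the neighbours Hoxd8, Hoxd9, Hoxd10 and Hoxd11 because Hoxd10 changed most on injury on the log2(FPKM + 1) scale, Hoxa11 as a second gene that was near 0 in injured cords, and Hoxb8 as the most abundant member. They are the 250 bases before the transcription start in RefSeq on GRCm38.p6, a different build from the table's mm39, and their coordinates are on GRCm38.p6 only: chr2:74704365-74704614 for Hoxd8, chr2:74697513-74697762 for Hoxd9, chr2:74691641-74691890 for Hoxd10 and chr2:74682073-74682322 for 1 of 2 starts of Hoxd11, all on the plus strand, chr6:52245811-52246060 on the minus strand for Hoxa11, and chr11:96281655-96281904 on the plus strand for Hoxb8. Capitals mark matches to TGATTNAT (a Hox-Pbx motif) in Hoxd11 and to TTTATNG (a caudal-type homeobox motif) in Hoxb8, on either strand.
Hoxd8: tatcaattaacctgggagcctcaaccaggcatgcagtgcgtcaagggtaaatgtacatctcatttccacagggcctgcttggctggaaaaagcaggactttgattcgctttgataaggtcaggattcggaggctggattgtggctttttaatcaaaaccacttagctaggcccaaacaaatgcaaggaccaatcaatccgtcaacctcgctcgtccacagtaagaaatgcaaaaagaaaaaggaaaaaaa
Hoxd9: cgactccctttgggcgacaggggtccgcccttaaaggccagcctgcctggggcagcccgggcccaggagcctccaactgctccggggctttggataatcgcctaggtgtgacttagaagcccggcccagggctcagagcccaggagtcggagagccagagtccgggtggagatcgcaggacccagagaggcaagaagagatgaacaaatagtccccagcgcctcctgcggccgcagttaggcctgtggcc
Hoxd10: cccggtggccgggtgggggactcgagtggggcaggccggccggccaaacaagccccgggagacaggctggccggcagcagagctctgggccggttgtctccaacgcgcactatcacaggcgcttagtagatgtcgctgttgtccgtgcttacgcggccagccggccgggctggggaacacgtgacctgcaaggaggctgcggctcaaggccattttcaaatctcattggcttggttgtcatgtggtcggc
Hoxd11: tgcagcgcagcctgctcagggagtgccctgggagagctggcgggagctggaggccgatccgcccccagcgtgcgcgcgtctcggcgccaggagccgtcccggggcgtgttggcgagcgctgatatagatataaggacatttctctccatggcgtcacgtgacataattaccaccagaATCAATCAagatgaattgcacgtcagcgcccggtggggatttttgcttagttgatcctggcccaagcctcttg
Hoxa11: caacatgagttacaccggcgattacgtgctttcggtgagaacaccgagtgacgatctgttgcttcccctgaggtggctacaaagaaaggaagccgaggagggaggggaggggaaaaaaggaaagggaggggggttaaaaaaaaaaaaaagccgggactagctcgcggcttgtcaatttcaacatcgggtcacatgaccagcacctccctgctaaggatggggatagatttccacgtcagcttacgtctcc
Hoxb8: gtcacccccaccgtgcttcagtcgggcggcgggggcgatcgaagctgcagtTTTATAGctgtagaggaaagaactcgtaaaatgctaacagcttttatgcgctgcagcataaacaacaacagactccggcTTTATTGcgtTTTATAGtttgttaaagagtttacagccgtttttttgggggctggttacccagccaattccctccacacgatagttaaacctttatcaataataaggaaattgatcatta

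RefSeq promoters matched 22 of the 39 members, with 24 starts. Over those 24 the 250 bases held a median of 12.5 CG dinucleotides (2 to 35), against 6 (0 to 56) over all 32851 promoters of the table, and a median GC content of 58.6% against 52.4%. Among the sequences shown, Hoxd10 and this start of Hoxd11 each hold 20 CG dinucleotides, Hoxd9 and Hoxa11 each hold 13, Hoxb8 holds 12 and Hoxd8 holds 6. The other start of Hoxd11, which is not shown, holds 2, with a GC content of 44.8% and no Hox-Pbx match. The caudal-type motif occurred in 2 of the 24 Hox promoters and in 9.81% of all promoters. The Hox-Pbx motif occurred in 2 of them and in 2.82% of all. The core promoter letters TATAAA occurred in 4 of them and in 12.4% of all. Both strands were searched, and a match to the core promoter letters on one strand can overlap a caudal-type match on the other, as it does in Hoxb8. A match describes letters in this window and is no evidence of binding.

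In uninjured cords most of the Hox RNA, summed over the 4 clusters, came from their middle genes. Paralog groups 5 to 8 made up 59.5% ± 9.29 of summed Hox FPKM in uninjured controls (SD, n = 3) and 67.0% ± 4.92 in uninjured labelled knockouts (SD, n = 3). Groups 9 and 10 made up 33.4% ± 10.7 and 24.0% ± 6.69, groups 1 to 4 made up 5.08% ± 1.37 and 6.72% ± 2.58, and groups 11 to 13 made up 2.05% ± 0.239 and 2.28% ± 0.933. Hoxb8 was the most abundant member over the 14 libraries (29.8 to 99.8 FPKM). The most abundant members of the other clusters were Hoxd8 (16.3 to 36.6 FPKM), Hoxc8 (15.6 to 28.1 FPKM) and Hoxa7 (3.72 to 25.1 FPKM). A total of 9 members did not pass the filter of 1 FPKM in at least 3 libraries, among them Hoxa13, Hoxb13, Hoxc13, Hoxd12 and Hoxd13. That leaves 30, among which Hoxa11, Hoxc11, Hoxc12 and Hoxd11 passed through their uninjured libraries alone.

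**Figure D1:**
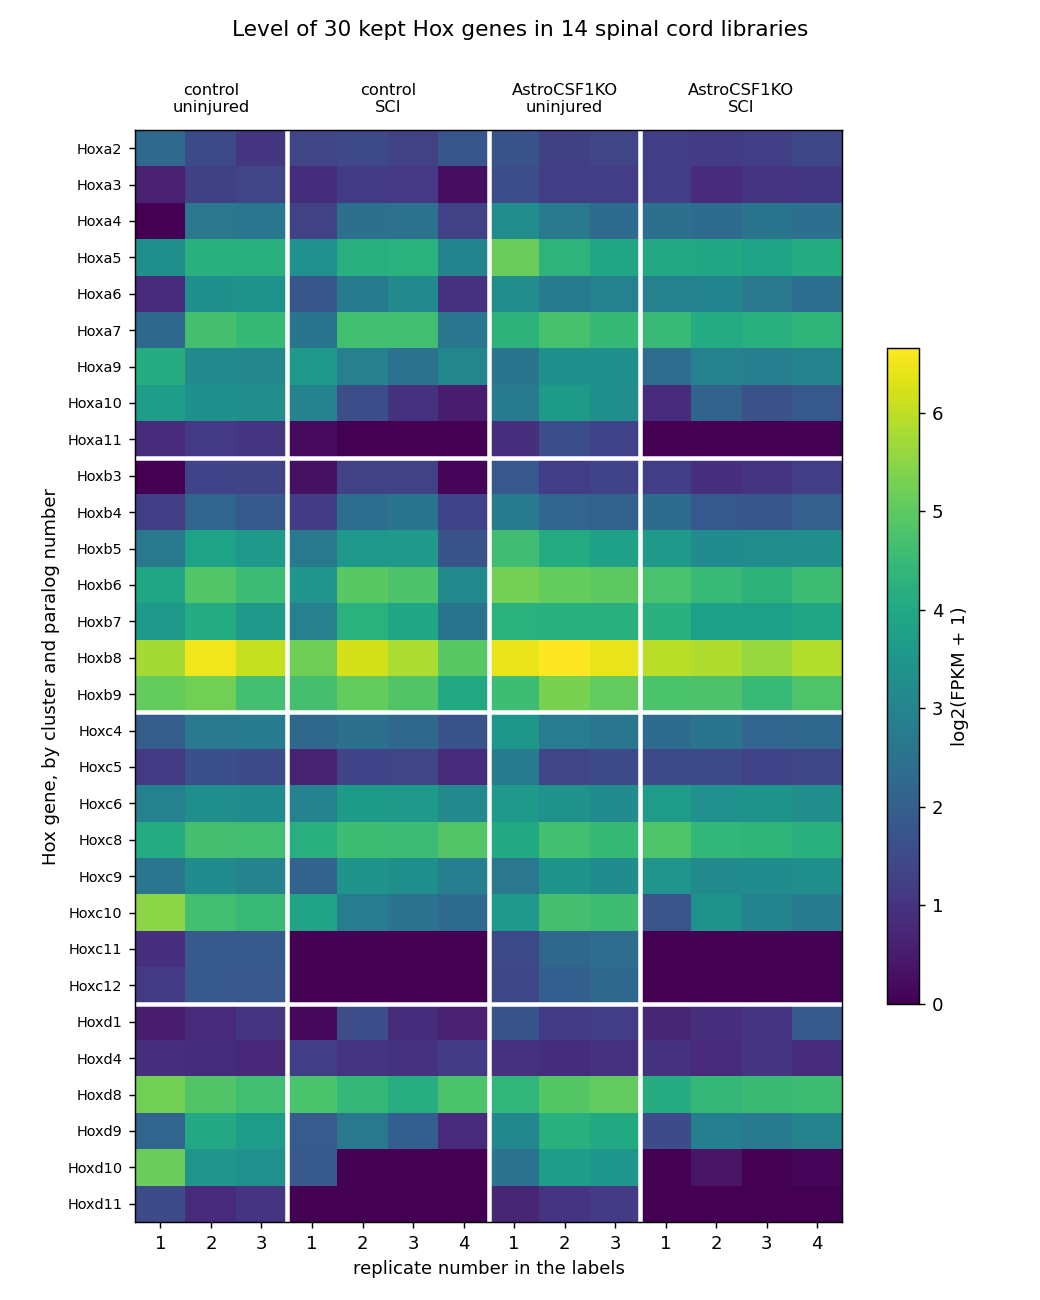
Level of each of the 30 Hox genes that passed the filter (rows, by cluster and paralog number) in the 14 libraries (columns, by group), as log2(FPKM + 1). Hoxb8 is the strongest row, and Hoxa11, Hoxc11, Hoxc12 and Hoxd11 reach 0 or nearly 0 in the injured columns of both genotypes.

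Injured cords of both genotypes held almost no RNA of the 5′ end of the clusters. Hoxc11, a group 11 gene of the lumbar cord, stood at 0.904, 2.64 and 2.72 FPKM in uninjured controls and at 0 in all 4 injured controls. Labelled knockouts stood at 1.76, 3.74 and 4.17 FPKM uninjured and at 0 in all 4 injured cords. Its reads numbered 244 uninjured and 0 injured in controls, and 392 and 0 in the labelled knockout. Set against a floor of 3 reads in each injured library the level was at least 26.7-fold lower and at least 39.9-fold lower. This floor covers counting error only. In uninjured control replicate 1, which stands apart, Hoxa4 and Hoxb3 had 0 reads. Replicates 2 and 3 had 171 and 166 reads of Hoxa4, and 136 and 136 of Hoxb3. Injured control replicates 1 and 4 stand apart as well, so the control folds here and below may be overstated or understated. For Hoxc11, uninjured control replicate 1 held the lowest of the uninjured values.

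Hoxc12, its neighbour towards the 5′ end, was at 1.21, 2.63 and 2.52 FPKM in uninjured controls and at 1.65, 2.98 and 3.74 FPKM in uninjured labelled knockouts. It had 0 reads in all 8 injured libraries, at least 13.9-fold lower in controls and at least 17.6-fold lower in the labelled knockout against the same floor. Hoxd11 was at 1.87, 0.725 and 1.014 FPKM in uninjured controls and at 0.647, 1.04 and 1.27 FPKM in uninjured labelled knockouts, again with 0 reads in all 8 injured libraries, at least 32.1-fold and at least 25.4-fold lower. The uninjured and injured libraries of these genes did not overlap in either genotype.

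Hoxa11, the group 11 gene of the Hoxa cluster, was at 0.798, 1.19 and 1.05 FPKM in uninjured controls and at 0.147, 0, 0 and 0 FPKM in injured controls, where all 6 reads lay in replicate 1. Labelled knockouts were at 0.852, 2.004 and 1.53 FPKM uninjured and had 0 reads in 4 injured cords against 202 uninjured, at least 20.5-fold lower. The antisense gene Hoxa11os overlaps it and the libraries do not keep strand, so the reads of the pair cannot be told apart. Hoxc13 had 46 reads in uninjured controls and 1 in injured controls, and 70 and 1 in the labelled knockout. Hoxa13, Hoxb13 and Hoxd12 had at most 15 reads in any library and 0 in every injured one. Of the 6 uninjured libraries, Hoxa13 and Hoxd12 were also at 0 in 4 each and Hoxb13 in 2, so their values overlap. Hoxd13 was at 0.0593 to 0.769 FPKM in uninjured controls and at 0 in injured ones, while its values in the labelled knockout overlapped.

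Hoxd10, a group 10 gene that helps to specify lumbar motor neurons, showed the largest change in size on the log2(FPKM + 1) scale in both genotypes. It was at 33.9, 10.04 and 9.41 FPKM in uninjured controls and at 2.60, 0, 0 and 0 FPKM in injured controls, a log2 change of -3.53 ± 0.62 (SE). Levels in the labelled knockout were 4.83, 12.1 and 10.2 FPKM uninjured and 0, 0.264, 0 and 0.0594 FPKM injured, a log2 change of -3.14 ± 0.26 (SE). All 84 reads of injured controls lay in replicate 1, and injured labelled knockouts had 10 reads in all against 990 uninjured. The groups did not overlap in either genotype.

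The other group 10 genes were lower in injured cords but still present. Hoxc10 was at 43.9, 23.7 and 21.4 FPKM in uninjured controls and at 13.7, 6.10, 4.79 and 4.00 FPKM in injured controls, and at 11.2, 25.0 and 23.1 FPKM against 2.39, 9.52, 7.00 and 5.82 FPKM in the labelled knockout. Its log2 changes were -1.98 ± 0.44 and -1.57 ± 0.40 (SE). Hoxa10 was at 11.96, 9.21 and 8.80 FPKM in uninjured controls and at 6.87, 2.04, 0.973 and 0.452 FPKM in injured ones, and at 5.69, 11.3 and 8.93 FPKM against 0.800, 3.36, 2.12 and 2.54 FPKM in the labelled knockout, log2 changes of -1.92 ± 0.55 and -1.61 ± 0.31 (SE). In both genes and both genotypes every injured library lay below every uninjured one. Among the injured controls replicate 1 was the highest for each of the group 10 genes.

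**Figure D2:**
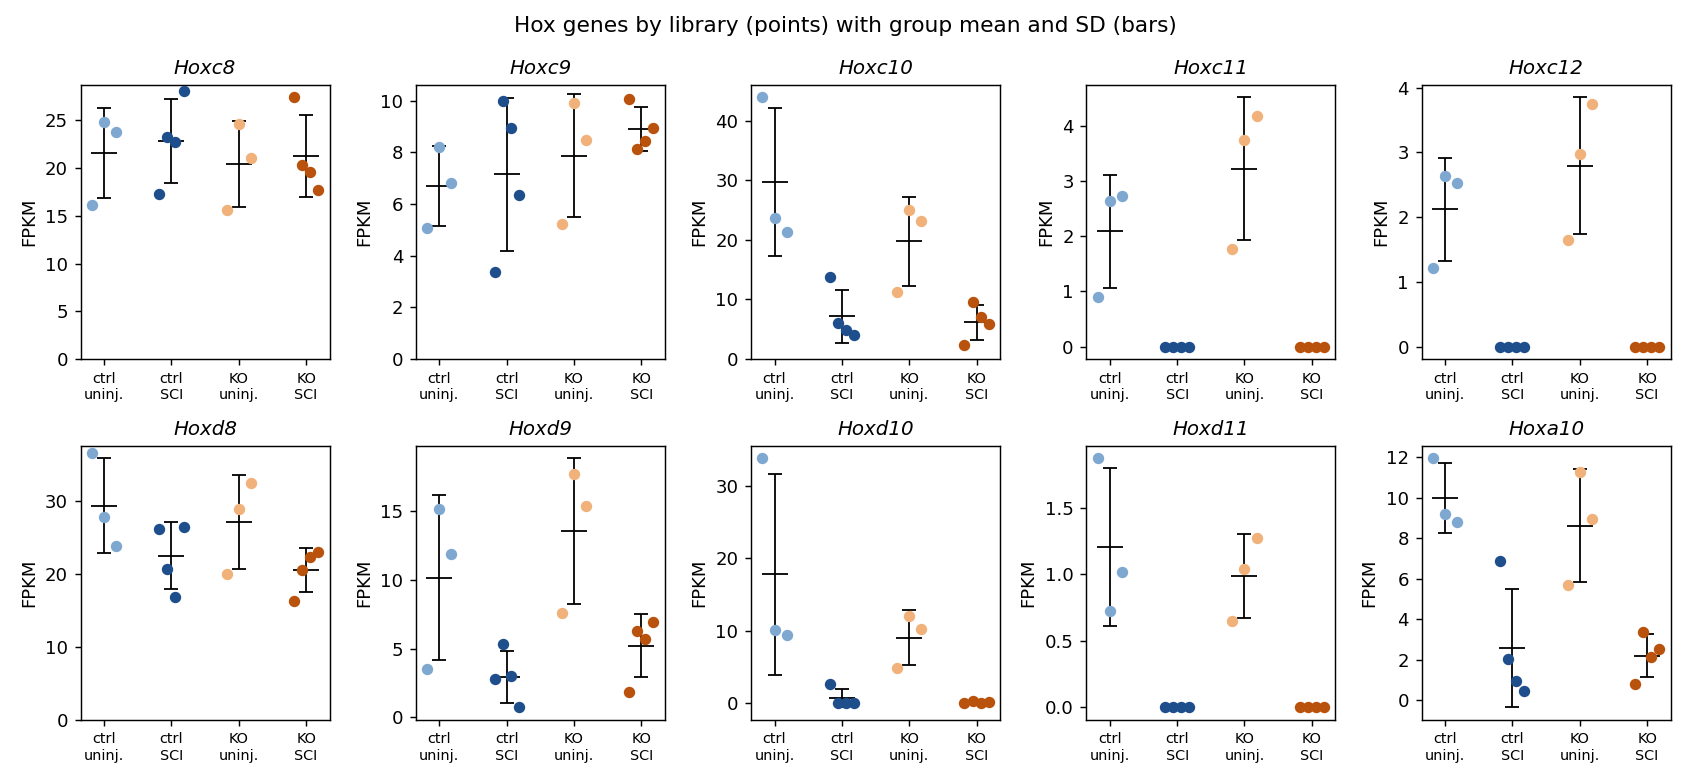
FPKM of single Hox genes in each library (points) with the group mean and SD (bars), in control (ctrl) and labelled-knockout (KO) cords, uninjured and 7 days after SCI. Hoxd10, Hoxc11 and Hoxc12 sit at or near 0 in injured cords, whereas Hoxc8 stays between 15.6 and 28.1 FPKM in all 14 libraries.

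Among the group 9 genes, Hoxd9 was at 3.50, 15.2 and 11.9 FPKM in uninjured controls and at 2.79, 5.35, 3.00 and 0.720 FPKM in injured ones, where the groups overlapped through uninjured replicate 1. In the labelled knockout it was at 7.57, 17.7 and 15.4 FPKM against 1.87, 6.32, 5.73 and 6.92 FPKM, without overlap, a log2 change of -1.25 ± 0.40 (SE). Hoxa9 averaged 10.7 ± 5.04 FPKM uninjured and 7.37 ± 2.71 injured in controls, and 7.72 ± 2.40 and 5.98 ± 1.23 in the labelled knockout. Hoxb9 averaged 31.3 ± 6.32 FPKM uninjured and 25.2 ± 7.36 injured in controls, and 31.5 ± 7.85 and 25.4 ± 2.62 in the labelled knockout (SD, n = 3 and 4). Hoxc9 averaged 6.70 ± 1.56 and 7.15 ± 2.95 in controls and 7.87 ± 2.39 and 8.89 ± 0.849 in the labelled knockout. Differences between the clusters were not tested.

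The middle genes differed less. Hoxb8 was at 53.0, 89.7 and 66.2 FPKM in uninjured controls and at 35.9, 73.6, 56.1 and 29.8 FPKM in injured controls, which overlap, and at 86.0, 99.8 and 85.2 FPKM against 61.3, 56.7, 48.9 and 58.7 FPKM in the labelled knockout, which do not. Its log2 changes were -0.56 ± 0.37 and -0.67 ± 0.09 (SE). Hoxb5 was at 5.33, 13.4 and 11.1 FPKM against 5.42, 10.8, 10.9 and 2.23 FPKM in controls, and at 23.5, 15.9 and 13.1 FPKM against 11.2, 8.29, 8.52 and 8.75 FPKM in the labelled knockout, log2 changes of -0.49 ± 0.53 and -0.83 ± 0.18 (SE). Values of Hoxb5 and Hoxb6 include reads that the antisense gene Hoxb5os, which overlaps both, may share.

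Hoxc8 was at 16.1, 24.9 and 23.8 FPKM in uninjured controls and at 17.3, 23.2, 22.8 and 28.1 FPKM in injured controls, and at 15.6, 24.6 and 21.1 FPKM against 27.5, 20.3, 19.6 and 17.7 FPKM in the labelled knockout. The groups overlap throughout, with log2 changes of 0.08 ± 0.26 and 0.06 ± 0.18 (SE). Hoxd8 was at 36.6, 27.8 and 23.8 FPKM against 26.2, 20.7, 16.8 and 26.5 FPKM in controls, and at 19.996, 29.0 and 32.5 FPKM against 16.3, 20.5, 22.4 and 23.0 FPKM in the labelled knockout, with a log2 change of -0.37 in both. Hoxa7 was at 3.72, 24.8 and 21.0 FPKM against 4.96, 23.8, 23.9 and 5.11 FPKM in controls, where the 3 libraries that stand apart hold the 3 lowest values, and at 18.6, 25.1 and 21.1 FPKM against 21.6, 16.1, 17.8 and 19.3 FPKM in the labelled knockout.

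Along the clusters, the kept members of groups 1 to 4 had log2 changes on injury between -0.30 and 0.24 in controls and between -0.65 and -0.02 in the labelled knockout. Those of groups 5 to 8 ran from -0.56 to 0.18 and from -0.83 to 0.06. Those of groups 9 and 10 ran from -3.53 to 0.02 and from -3.14 to 0.19, and the 4 kept members of groups 11 to 13 ran from -1.61 to -0.95 and from -2.03 to -0.98, where the size on this scale is limited by levels of a few FPKM. The injury comparisons of the genotypes share no libraries. Readings of Hoxc5, whose annotated span covers Hoxc6, Hoxc8, Hoxc9 and Hoxc10, of Hoxa3, which spans Hoxa4 to Hoxa6, and of the overlapping pair Hoxd3 and Hoxd4 are uncertain, since reads of overlapping genes could be divided among them. Other members overlap further genes and share this limit. Among them are Hoxd10 and Hoxd11 (both with Gm28309 on the same strand), Hoxd8 (with Hoxd3os1) and Hoxa7 (with Hoxaas3).

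**Figure D3:**
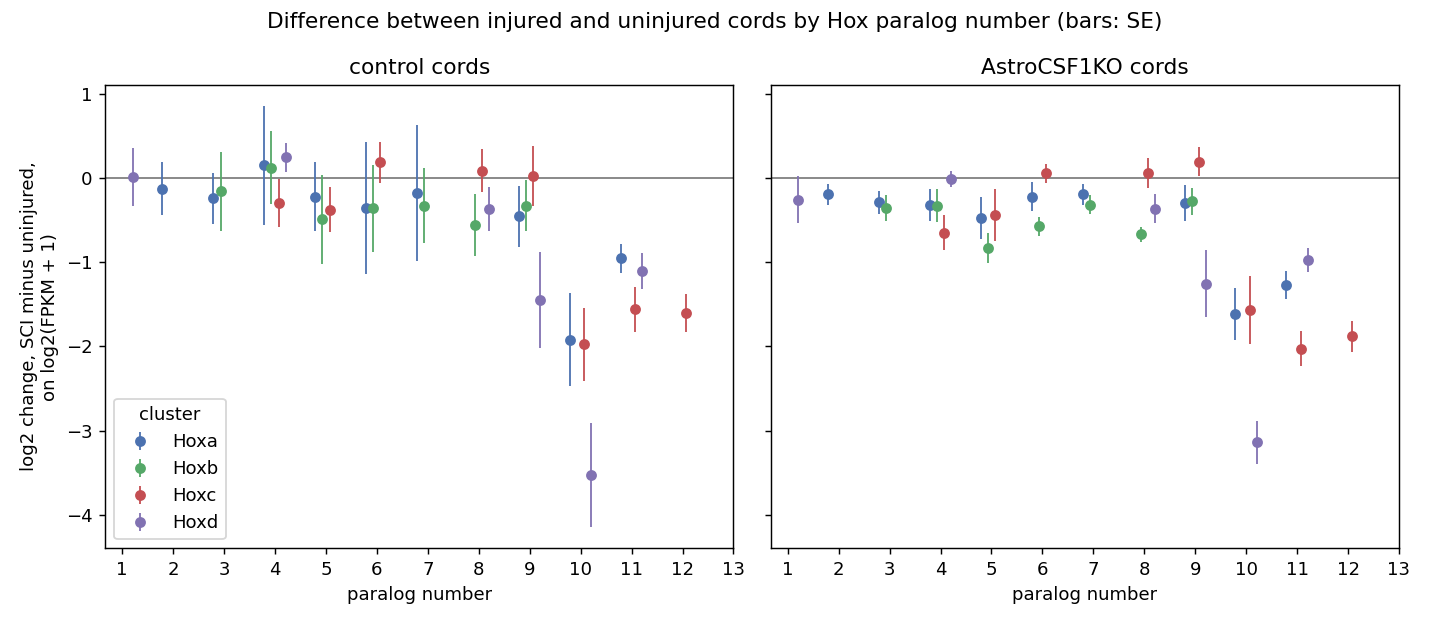
Log2 change on injury, on the log2(FPKM + 1) scale with its SE, against paralog number for the kept Hox genes, in control and in labelled-knockout cords. Members numbered 1 to 8 lie between -0.83 and 0.24, and the lowest values belong to groups 10 to 12.

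In controls limma called 1 of 39 members lower, Hoxc12 (Benjamini-Hochberg adjusted p under 0.05 over 15155 genes), where 0.0132% of genes tested were called lower, and 8 members had an unadjusted p under 0.05. With the replicate number as a block the count was 4 (Hoxc10, Hoxc11, Hoxc12 and Hoxd10), where 6.80% of all genes tested were called in either direction. Leaving out the 3 control libraries named above gave 9, of which Hoxc6 was higher, where 23.9% of all genes tested were called. With either control uninjured replicate 2 or 3 or any of control SCI replicates 2 to 4 left out the count was 0. Of all genes tested, 0.099% to 0.825% were called in those fits. The count was 2 without control uninjured replicate 1 (0.416% of all genes) and 2 without control SCI replicate 1 (0.647%). In the labelled knockout 13 of 39 were called lower and 0 higher, where 26.1% of genes tested were called lower. The 13 comprise 1 member of groups 1 to 4 (Hoxc4), 4 of groups 5 to 8 (Hoxb5, Hoxb6, Hoxb7 and Hoxb8), 4 of groups 9 and 10 (Hoxa10, Hoxc10, Hoxd9 and Hoxd10) and 4 of groups 11 to 13 (Hoxa11, Hoxc11, Hoxc12 and Hoxd11). Single calls were followed only for the members whose values are given in every library. Among those, Hoxc10 and Hoxd9 were no longer called when uninjured labelled-knockout replicate 2 or 3 was left out. Hoxd9 was also lost without injured replicate 3, and Hoxd8 was called as well without uninjured replicate 1. Calls lost among Hoxc4, Hoxb6 and Hoxb7 are not listed here, and the count fell as low as 9 with 1 library left out. The groups did not overlap, with injured libraries lower, in 9 of 39 members in controls (4.76% of the 15155 genes kept) and in 14 of 39 in the labelled knockout (28.4%). The counts of members include Hoxc13 in both genotypes and Hoxd13 in controls, which did not pass the filter, whereas the shares are over genes that did. In controls those 9 were all of groups 10 to 13, and 1 member, Hoxd4, was higher without overlap. Because these comparisons led to the choice of the family, no inference is drawn from the counts.

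Within a library, the balance between ends of the cluster does not depend on how libraries are scaled. Groups 11 to 13 held 1.33% to 3.20% of summed Hox FPKM in the 6 uninjured libraries and 0% to 0.0726% in the 8 injured ones. The share of groups 10 to 13, a boundary drawn after the values were seen, was 29.7%, 12.5% and 14.1% in uninjured controls and 11.5%, 2.54%, 2.05% and 2.68% in injured controls, and 6.98%, 13.3% and 13.96% against 1.16%, 4.91%, 3.68% and 3.07% in the labelled knockout. Injured control replicate 1 and uninjured labelled-knockout replicate 1 lie nearest to the other condition. The ratio of Hoxc10 to Hoxc9, also picked after the values were seen, was 8.63, 2.89 and 3.14 in uninjured controls and 4.09, 0.612, 0.536 and 0.629 in injured controls, and 2.15, 2.53 and 2.72 against 0.238, 1.17, 0.8288 and 0.651 in the labelled knockout, so in controls replicate 1 of the injured group overlaps the uninjured ones.

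**Figure D4:**
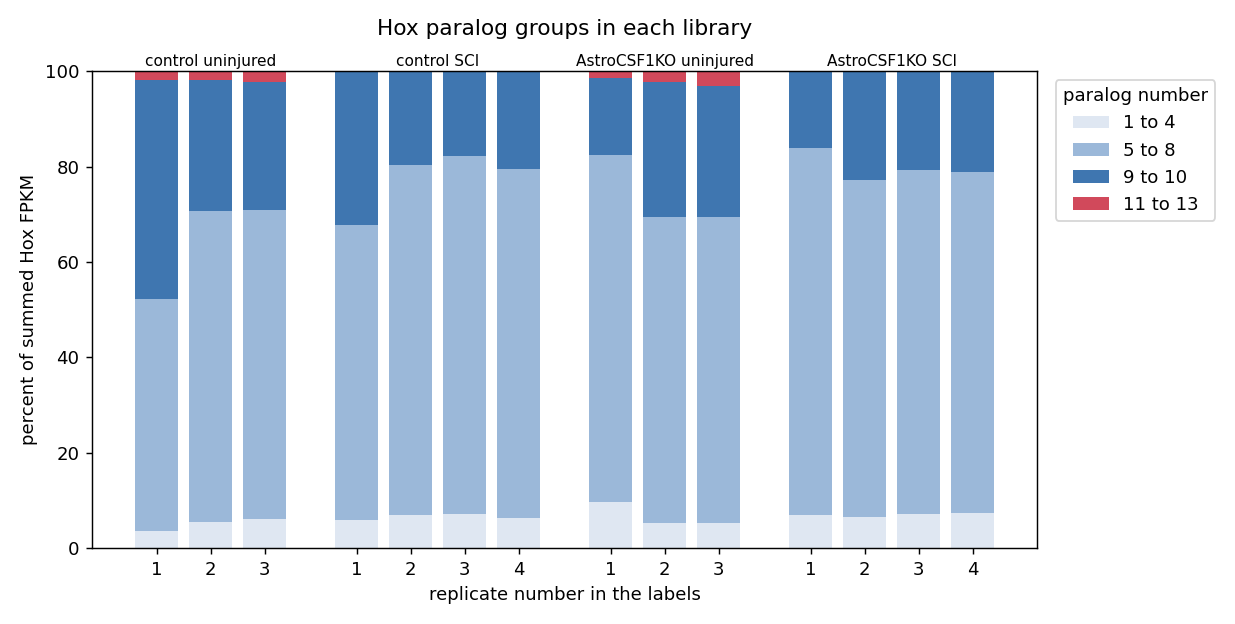
Percent of summed Hox FPKM held by paralog groups 1 to 4, 5 to 8, 9 to 10 and 11 to 13 in each of the 14 libraries. Groups 11 to 13 hold 1.33% to 3.20% in uninjured and at most 0.0726% in injured libraries.

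Other measures moved with injury beside these genes. The 6 neuron genes summed to 1668 to 2055 FPKM in uninjured and 851 to 1152 FPKM in injured controls, and to 1454 to 1843 and 912 to 1068 FPKM in the labelled knockout, with 0 and 6 of 6 called lower. The 6 motor neuron genes summed to 75.6 to 128 and 47.5 to 114 FPKM in controls and to 111 to 138 and 89.1 to 122 FPKM in the labelled knockout, with 0 and 4 of 6 called lower. Over all genes tested, 0.0132% were called lower in controls and 26.1% in the labelled knockout. No neuron or motor neuron marker sum reached 0, and none of the genes in those lists was at 0 in every library of a group. Which cells express the 5′ members was not measured, so these sums say nothing of the number of those cells. Microglia and macrophage genes summed to 38.4 to 50.2 FPKM and 717 to 1106 FPKM in controls, and fibroblast genes to 32.6 to 56.1 FPKM and 149 to 592 FPKM, and in the labelled knockout to 36.6 to 40.9 and 712 to 1388 FPKM, and to 13.7 to 31.6 and 116 to 349 FPKM. Schwann cell genes summed to 455 to 666 FPKM and 231 to 398 FPKM in controls, without overlap, and to 116 to 501 and 124 to 279 FPKM in the labelled knockout. The part of these shifts in the Hox values was not tested. In bulk tissue fewer cells of a type and less RNA per cell cannot be told apart, and since each injured cord was taken at its lesion, the exact level sampled and the injury cannot be told apart either.

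Between genotypes no Hox gene was called. Limma called 0 of 39 members in uninjured cords, 0 in injured cords and 0 for the interaction of genotype and injury, where it called 0%, 0% and 0% of the 15155 genes tested. Limma voom on recovered reads also called 0 in each. Of the 39, 30 passed the filter and were tested. In injured cords Hoxc11, Hoxc12 and Hoxd11 had 0 reads in every library, so no call was possible for them there. At an unadjusted p under 0.05 there was 1 member in uninjured cords, 0 in injured cords and 0 for the interaction. The uninjured one was Hoxd1, at 0.752 ± 0.304 FPKM in controls and 1.65 ± 0.591 in the labelled knockout (SD, n = 3 each), with a log2 difference of 0.59 ± 0.22 (SE) and an adjusted p of 0.603. Without overlap, 3 of 39 members were higher in the uninjured labelled knockout, Hoxb6, Hoxb7 and Hoxd1 (23.3% of genes tested did not overlap in either direction), and 0 differed in injured cords (3.15%). The smallest p in injured cords was that of Hoxc5, at 1.12 ± 0.548 FPKM in controls and 1.71 ± 0.132 in the labelled knockout (n = 4 each), a log2 difference of 0.39 ± 0.19 (SE), adjusted p = 0.477. For the interaction it was that of Hoxd4, at -0.26 ± 0.17 (SE, adjusted p = 0.99999).

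The genotype difference of Hoxd10 was -0.74 ± 0.56 (SE, log2 scale) in uninjured and -0.36 ± 0.41 in injured cords, and that of its injury changes was 0.39 ± 0.72. Given these errors, a missing call does not show that the genotypes were alike. Uninjured labelled-knockout replicate 1 carried more RNA of 3′ members and less of Hoxc10 than replicates 2 and 3: Hoxc4 was at 10.5 FPKM against 6.06 and 5.07, Hoxc5 at 5.83 against 1.63 and 1.76, and Hoxa5 at 34.4 against 19.2 and 14.2, while Hoxc10 was at 11.2 against 25.0 and 23.1.

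Noncoding genes that lie among the 5′ members also had 0 reads in injured cords. Hotair, a long noncoding RNA from the strand opposite to and between Hoxc12 and Hoxc11 (chr15:102852494-102856165 on mm39), was at 7.89, 0.652 and 0.660 FPKM in uninjured controls and 0.533, 0.679 and 1.13 FPKM in uninjured labelled knockouts. It had 339 reads over the 6 uninjured libraries and 0 over the 8 injured ones. Hoxa11os had 74 reads uninjured and 0 injured, but these cannot be told apart from reads of Hoxa11, which it overlaps. At the other end, Haglr, next to Hoxd1, averaged 1.40 and 1.40 FPKM in uninjured and injured controls and 1.79 and 1.74 in the labelled knockout. Hotairm1, a noncoding gene of the Hoxa cluster, averaged 2.21 and 2.26 FPKM in controls and 4.74 and 2.82 in the labelled knockout. Of the 18 noncoding genes of the list 7 were kept, 0 were called on injury in controls and 1 (Hotairm1, log2 change -0.60 ± 0.11 SE, adjusted p = 0.00276) in the labelled knockout. The share of all genes tested that was called lower was 0.0132% in controls and 26.1% in the labelled knockout. Hottip and Mir196b had 0 reads in every library.

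Genes that work with Hox proteins were compared from lists, beside 3952 of 15155 genes called lower and 2991 called higher on injury in the labelled knockout, and 2 and 156 in controls. The shares of the lists called were not tested against these. The TALE homeodomain cofactors Meis and Pbx bind DNA beside Hox proteins: of 11 listed, 10 kept, 0 were called in controls (median log2 change -0.13 against -0.05 over all genes tested), and 6 were called lower and 1 higher in the labelled knockout (median -0.32 against -0.03). Named by smallest p there, Tgif1, a TALE repressor, changed by 1.07 ± 0.12 (SE), Pbx3 by -0.41 ± 0.06, Meis2 by -0.57 ± 0.12 and Pbx4 by -0.43 ± 0.10. Of 20 Polycomb genes, 18 kept, 0 were called in controls (median -0.19) and 6 lower and 2 higher in the labelled knockout (median -0.10), among them the PRC1 chromobox genes Cbx6 (-0.76 ± 0.10), Cbx7 (-0.61 ± 0.09) and Cbx8 (-0.59 ± 0.13) and the ubiquitin ligase gene Rnf2 (0.51 ± 0.10). Of 10 Trithorax genes, 3 were called lower in the labelled knockout, led by Men1 (-0.39 ± 0.07), and 0 in controls. Cdx1, Cdx2 and Cdx4, the caudal-type factors that activate posterior Hox genes in the embryo, had 0 reads in all 14 libraries. Of 13 motor column genes 1 was called in controls (Runx1, higher) and 9 in the labelled knockout, 7 lower and 2 higher.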

How the data were processed

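Poly(A)-selected RNA from 14 mouse spinal cord samples was read from both ends (about 150 bp each) as libraries without strand information, per the labels' protocols. CASAVA 1.8, HISAT2 and mm39 are named in the submitters' processing notes, but no source used here names the program that counted reads or its annotation. The authors deposited FPKM for 56748 genes, with 2 sample columns not used here. Depth was read from whole reads recovered from the FPKM: all values above 0 were whole multiples of one read within 0.01, and the total was 13263610 to 21969581 reads per library. Floors take 3 reads and cover counting error only. Gene symbols, IDs and mm39 positions are those of the table.

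Values were analysed as log2(FPKM + 1) with limma 3.58.1 in R 4.3.3, with an intensity trend and two-sided tests, over 15155 genes with at least 1 FPKM in at least 3 of 14 libraries, Benjamini-Hochberg adjusted and called under 0.05. Fold changes on this scale understate those of low genes. Pairwise comparisons used only their own groups, and the interaction used all 14 libraries. Limma offset variances of 0. The procedure was tested on simulated data. Values in every library are given for kept members with a mean log2 change on injury of 0.5 or more and for the most abundant member of each cluster. From the other lists the called members with the smallest p are named. The members and lists were chosen with earlier results of these data known. Replicate numbers in the labels are not said to pair samples. The deviations of same-numbered control libraries correlated at 0.616, 0.832 and 0.733. The highest correlations with another number were -0.528, 0.708 and 0.812, so these values do not show pairing. At least 1 same-numbered correlation was below 0.1 in each other comparison. The block is given beside the control count as an alternative only. Promoters came from RefSeq on GRCm38.p6. Alternatives were no filter, a filter of 5 FPKM, a pseudocount of 0.1, scaling to TPM, voom, 1 fit of all libraries, the replicate block and leaving out libraries. Some values of single genes are not reported here.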

Additional observations from a re-analysis of the deposited data

Results flagged for a closer look

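In the groups of 4 injured libraries 27 sets of values were checked for a library far from the other 3, and 6 held one, where chance gives about 1 in 20 for independent sets of continuous values. These sets share libraries and genes, and for Hoxd10, Hoxa11 and the labelled-knockout share of groups 11 to 13 the other 3 libraries are at 0, so that a few reads are enough. Injured control replicate 1 stood above the others for Hoxd10 at 2.60 FPKM and for Hoxa11 at 0.147 FPKM. In the same library groups 11 to 13 held 0.0726% of summed Hox FPKM, above the others, and groups 5 to 8 held 61.8%, below them. It is also 1 of the 3 control libraries that stand apart in the share of detected genes at a single read. Injured labelled-knockout replicate 1 was above the others for Hoxb5 at 11.2 FPKM and for the share of groups 11 to 13 at 0.0273%. The same library held more skeletal muscle RNA than the other injured labelled knockouts, with Acta1 at 149.96 FPKM against 0.492 to 5.14 and Myh4 at 48.4 against 0 to 0.365. The cause was not tested.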

How the results depend on the processing

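In the control injury comparison the count of 1 called member became 0 with a filter of 5 FPKM (1.05% of all genes tested called). That filter removes the called member, Hoxc12, whose highest value is 3.74 FPKM, so its loss was fixed in advance. The count was 2 with a pseudocount of 0.1 (1.37%), 2 scaled to TPM (1.4%) and 4 with voom (0.686%). It was 7 in 1 fit of all 14 libraries, 9 without the 3 control libraries that stand apart, and 4 with the replicate block. Leaving out 1 library gave 0 to 2 (0.099% to 0.825%). Over all genes tested the share called in either direction was 7.08%, 23.9% and 6.80% in the fit of all 14 libraries, without the 3 libraries and with the replicate block. In the labelled knockout the count of 13 became 5 in 1 fit of all 14 libraries (7.53% of all genes called) and 15 with the replicate block (37.1%). It was 9 to 14 with 1 library left out (35.9% to 45.3%). The cause was not tested. The counts of 0 between genotypes and for the interaction were 0 under each alternative run. The control injury change of Hoxa7 turned to 0.0612 without the 3 libraries and 0.15 with the replicate block, and ran from -0.96 to 0.26 with 1 library left out; that of Hoxc8 turned to -0.0778 and -0.0189, and ran from -0.10 to 0.20. In the labelled knockout Hoxc8 ran from -0.11 to 0.20. Without the 3 control libraries the remaining uninjured controls carry Xist (15.2 and 20.6 FPKM) and the injured ones Ddx3y (13.8 and 11.8 FPKM), so sex and injury cannot be told apart there. Groups of 3 and 4, low levels at the 5′ end and a floor of 3 reads limit precision.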
